A study of Mus musculus with 6 samples.

Results

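The interferon-inducible GTPase genes Iigp1, Irgm1, Irgm2, Igtp, Gbp2, Gbp3, Gbp6 and Gbp7 were followed across dendritic and stromal cells of the mouse. They are 8 of 18193 named genes on the arrays and were read by 12 probe sets, each annotated to that gene alone, of 45037 that were not controls. They were picked by name, with their high signal in follicular dendritic cells already known from these arrays, so the levels in follicular and bone marrow-derived dendritic cells are given as a description. Total RNA was labelled with biotin and hybridised to 6 arrays. FL-Y, an FDC-like cell line transformed with SV40 genes, was measured on 1 array after activation by antibody through its lymphotoxin beta receptor and on 1 array without it. Follicular dendritic cells (FDC) grown in vitro were on 2 arrays, and bone marrow-derived dendritic cells (BMDC) on 2. The labels used here give no mouse strain, age or culture time, and FL-Y is a single line. They do not say whether arrays of one group hold different cultures, so spreads and p-values cover these arrays only and may be technical.

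These GTPases are made in large amounts when interferon-gamma, or more weakly a type I interferon, reaches a cell. The immunity-related GTPases (IRG) form a family of small proteins: Iigp1 is an effector that coats and disrupts the vacuoles of intracellular parasites such as Toxoplasma, while Irgm1, Irgm2 and Igtp sit on the cell's own membranes and keep the effectors from acting there. The guanylate-binding proteins (GBP) are larger GTPases that assemble on pathogen vacuoles and bacteria, and Gbp2 is anchored in membranes by a lipid tail. Interferon signals reach such genes through receptors, JAK kinases, STAT dimers that bind gamma-activated sites (GAS) and IRF proteins that bind interferon-stimulated response elements (ISRE).

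The members' promoters are shown because the elements named above are short enough to read there. RefSeq windows of 300 bases (build GRCm38.p6) were at hand for 6 of the 8 genes; Iigp1 and Gbp6 had no entry. The stretches below, printed 5′ to 3′ on the strand of the gene, run from 120 bases before the annotated start site to 10 bases after it. Capitals mark matches to the ISRE letters (GAAA, any 2 bases, GAAA) or to the GAS letters (TTC, any 3 bases, GAA), both sought on both strands.
Igtp, chr11:58199436-58199565, + strand: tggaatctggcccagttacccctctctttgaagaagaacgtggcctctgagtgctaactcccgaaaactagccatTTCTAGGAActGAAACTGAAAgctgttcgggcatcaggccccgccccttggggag
Irgm2, chr11:58214857-58214986, + strand: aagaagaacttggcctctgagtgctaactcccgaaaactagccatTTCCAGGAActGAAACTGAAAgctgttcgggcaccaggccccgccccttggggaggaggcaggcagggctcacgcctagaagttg
Irgm1, chr11:48871411-48871540, - strand: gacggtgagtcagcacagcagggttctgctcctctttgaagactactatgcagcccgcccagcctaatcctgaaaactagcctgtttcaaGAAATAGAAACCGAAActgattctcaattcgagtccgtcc
Gbp2, chr3:142620543-142620672, + strand: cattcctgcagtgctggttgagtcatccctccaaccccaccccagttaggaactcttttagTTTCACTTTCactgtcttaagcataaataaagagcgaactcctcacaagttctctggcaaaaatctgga
Gbp3, chr3:142559924-142560053, + strand: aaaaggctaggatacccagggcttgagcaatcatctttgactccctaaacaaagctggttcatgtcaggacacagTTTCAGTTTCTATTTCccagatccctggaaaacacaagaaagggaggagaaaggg
Gbp7, chr3:142530216-142530345, + strand: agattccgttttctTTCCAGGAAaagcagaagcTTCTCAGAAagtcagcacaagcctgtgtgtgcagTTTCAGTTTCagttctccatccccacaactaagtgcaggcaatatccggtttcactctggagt

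Each of the 6 genes had an ISRE match within 64 bases upstream of its start site. Counted over windows, 6 of 7 held one, the exception being the second window of Gbp3, against 3.44% of all 32851 promoter windows of the same length. The matches of Irgm1 and Gbp3 are 2 overlapping copies each. The GAS letters stood in 3 of the 7 windows, those of Igtp, Irgm2 and Gbp7, against 8.3% of all windows, and both elements stood together in these 3 and in 0.454% of all. Windows of 10 other IRG and GBP genes held the ISRE letters in 6 and the GAS letters in 4. In Igtp and Irgm2, which are neighbours in the reference gene table, the GAS match lies just upstream of the ISRE match, and 244 of 265 aligned bases of their windows were identical. Gbp2, Gbp3 and Gbp7 also lie in one cluster, in which Gbp7 adjoins Gbp3. A match of letters is a description of the window and was not tested as a binding site.

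**Figure D1:**
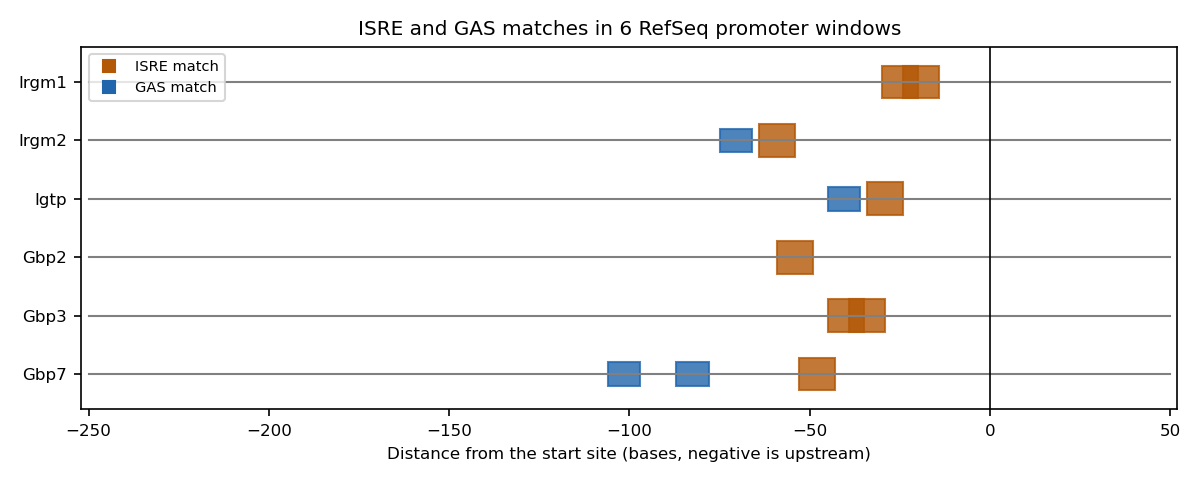
Positions of ISRE matches (orange) and GAS matches (blue) in the promoter windows of 6 genes, against the distance in bases from the annotated start site at 0; darker orange is the overlap of 2 matches. All ISRE matches lie within 64 bases upstream of the start site, and Irgm2, Igtp and Gbp7 carry GAS matches further upstream.

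Signals are the deposited array intensities on a linear scale. Differences are given on the scale log2(signal + 14.2), where 14.2 is the middle value of the 6 arrays' 20th percentiles, and this scale understates differences of dim probe sets. The percentile lay between 8.7 and 15.4 and serves as a mark of background level, not a measured limit of detection. The labelled cell types were read against their markers. On the FDC arrays the stromal genes were high, with 6 of 8 fibroblast and stroma markers called higher than in BMDC and 0 lower, while the summed signal of 7 macrophage markers was 3263 and 1654 on the FDC arrays, against 145994 and 108933 on the BMDC arrays. The FDC markers were mixed. Weak among them were the receptors that define the cells in tissue: the complement receptor Cr2 had signals of 119.5 and 4.1, and the IgE receptor Fcer2a 104.1 and 42.4, on FDC arrays 1 and 2. The chemokine Cxcl13 had 1288 and 64.5. Others were strong on both FDC arrays: the adhesion molecule Vcam1 had 6959 and 5764, against 108.4 and 874.7 in BMDC (4.27 ± 0.95 on the log2 scale, SE, adjusted p = 0.0566), Mfge8 had 5146 and 6484, against 27358 and 25082, and Bst1 had 2468 and 2756, against 1686 and 2944. Of 11 FDC markers tested with limma, 0 were called higher in FDC and 3 lower (by unadjusted p under 0.05, 1 and 3). The 3 were Fcgr2b, Clu and Mfge8. Fcgr2b had 199.4 and 198.0 on FDC arrays 1 and 2, against 32488 and 23877 in BMDC. Clu had 221.6 and 71.2, against 3476 and 5286. Of 8 dendritic cell markers 6 were called lower in FDC. Among all probe sets tested, 4.84% were called higher in FDC and 4.09% lower. The name FDC is kept here as the label's. It stands for cells with strong stromal genes, weak Cr2 and Fcer2a, and Fcgr2b, Clu and Mfge8 below BMDC.

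All 8 GTPase genes had their highest signal in cultured FDC, and 12 of 12 probe sets had it on FDC array 2, where 14.8% of all probe sets did. FDC array 1 came next for 11 of 12, an order seen in 5.38% of all probe sets. The genes were known to be high in FDC when chosen, so nothing is read from these counts. The median log2 difference of the 8 genes, FDC minus BMDC, was 3.98, beside -0.05 over the 27022 probe sets tested, and ranged from 1.13 for Gbp3 to 8.89 for Iigp1. The median was 4.23 for the 4 IRG genes and 2.79 for the 4 GBP genes.

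The effector Iigp1 had the widest gap between the cell types. Its probe set 1419043_a_at had signals of 24305 and 48445 on FDC arrays 1 and 2, against 54.0 and 62.7 in BMDC, a log2 difference of 8.89. Its second probe set, 1419042_at, had 4139 and 14205 in FDC, against 38.8 and 25.8 in BMDC, a difference of 7.38. Both probe sets were far apart between the cell types, and the BMDC signals stood only a few fold above background level, so the size of these differences depends on the offset.

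The 3 regulatory IRG genes were also separated, but from BMDC signals well above background. Igtp had 6676 and 26146 in FDC, against 962.7 and 569.1 in BMDC, a log2 difference of 4.13. Irgm2, which acts at the Golgi, had 3271 and 7903 in FDC, against 233.0 and 245.6 in BMDC, a difference of 4.33. Irgm1, which is needed for resistance to mycobacteria, had 3367 and 13292 in FDC, against 717.1 and 286.6 in BMDC, a difference of 3.84. For all 3 both FDC arrays lay above both BMDC arrays, by 4.69-fold for Irgm1 where the gap was narrowest.

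Among the GBP genes, Gbp6 had the widest gap and Gbp2 a narrower one. Gbp6 had 4965 and 17416 in FDC, against 126.5 and 81.5 in BMDC (1447927_at, a log2 difference of 6.33), and its second probe set had 764.5 and 4841 in FDC, against 82.6 and 63.2 in BMDC (4.49). Gbp2 had 3263 and 16722 in FDC, against 920.6 and 960.4 in BMDC (1418240_at, 2.96), and 1532 and 7477 in FDC, against 320.6 and 389.5 in BMDC, with the probe set 1435906_x_at (3.21). The suffix of that probe set marks possible binding to related transcripts, which matters in a family of like sequences and was not tested here.

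Gbp7 and Gbp3 were close between FDC array 1 and BMDC. Gbp7, which helps to deliver the phagocyte oxidase to vacuoles, had 1336 and 9376 in FDC, against 271.2 and 1164 in BMDC (1425156_at, a log2 difference of 2.62), so that FDC array 1 was 1.15-fold above BMDC array 2. Its probe set 1434380_at had 1074 and 4785 in FDC, against 358.9 and 806.6 in BMDC (2.05). Gbp3 had 356.9 and 1175 in FDC, against 210.6 and 394.0 in BMDC (1.13), and here the groups overlapped, FDC array 1 lying between the BMDC arrays. Both FDC arrays lay above both BMDC arrays for 11 of 12 probe sets, as for 25.8% of all tested. By limma at an adjusted p of 0.05, 7 of the 12 probe sets, those of Iigp1, Irgm1, Irgm2, Igtp and Gbp6, were called higher and 0 lower, where 4.84% of all were called higher and 4.09% lower. The genes were chosen on this contrast, so nothing is read from these counts. All 12 passed the filter on low signal, which their FDC signal alone could bring about.

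**Figure D2:**
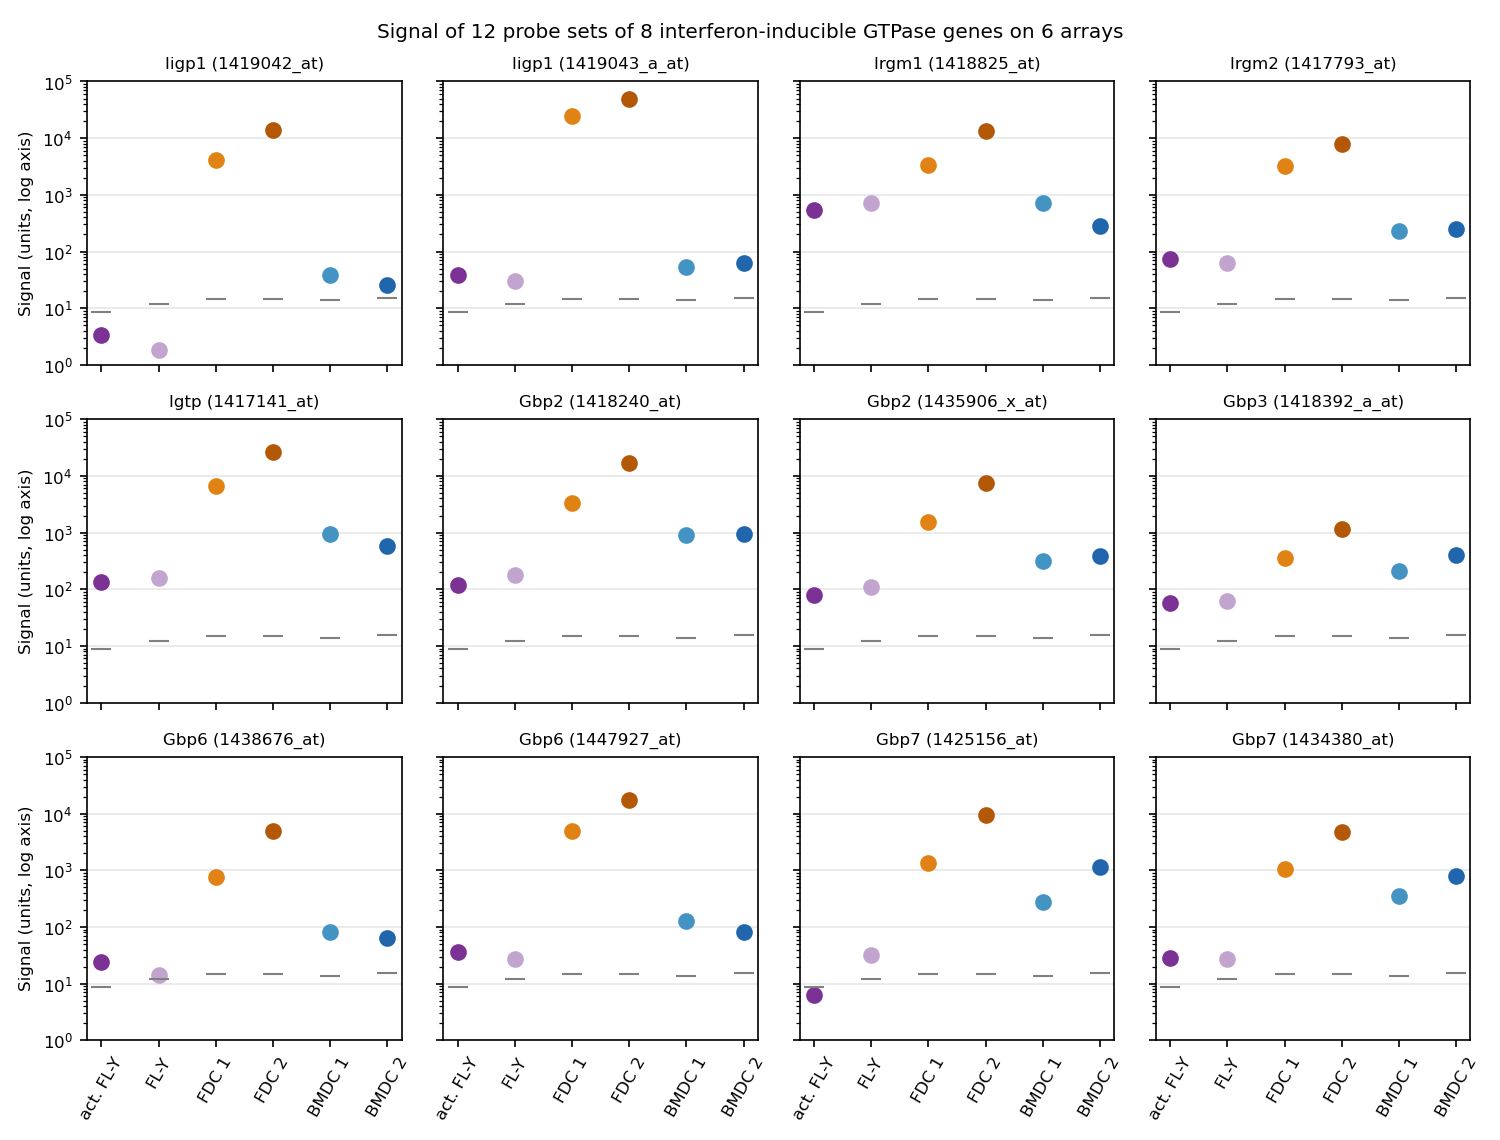
Signal (log axis, linear units) of each of the 12 probe sets on the activated FL-Y, FL-Y, FDC and BMDC arrays, 1 point per array; grey ticks mark the 20th percentile of each array. FDC array 2 is highest in every panel, and the FL-Y arrays lie below the others except for Irgm1.

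The FDC arrays differed from each other as well. FDC array 2 carried more signal than FDC array 1 for 12 of 12 probe sets, and at least 2-fold more on the log2 scale for 11, where 11.6% of all probe sets were that much higher and 12.3% that much lower. The ratio of signals, array 2 over array 1, was smallest for Iigp1, at 1.99 (1419043_a_at), and 2.42 for Irgm2. It was 3.92 for Igtp and 3.95 for Irgm1. The GBP ratios were 3.29 for Gbp3, 3.51 and 6.33 for the Gbp6 probe sets, 4.88 and 5.12 for those of Gbp2 and 4.45 and 7.02 for those of Gbp7. The median log2 difference of the 8 genes was 1.89 between the FDC arrays, beside -0.03 over all probe sets, while BMDC array 2 minus BMDC array 1 gave 0.07 for the 8 genes.

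The spread between the FDC arrays weighs on each comparison with BMDC. Set against the mean of the BMDC arrays, the log2 difference of Gbp7 (1425156_at) was 4.02 on FDC array 2 and 1.22 on FDC array 1, and that of Gbp3 was 1.97 and 0.29. For Gbp2 (1418240_at) the values were 4.13 and 1.78. For Iigp1, whose 2 values were 9.39 and 8.39, the spread was small beside the gap. The median over the 8 genes was 4.896 with FDC array 2 alone and 2.999 with FDC array 1 alone.

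The BMDC arrays differed gene by gene. At least 2-fold on the log2 scale, 2 of 12 probe sets were higher on BMDC array 2 and 1 was lower, where 10.8% of all probe sets were higher and 9.46% lower. Gbp7 was higher on BMDC array 2 than on BMDC array 1 with both probe sets, by 4.29-fold and 2.25-fold, and Gbp3 by 1.87-fold. Irgm1 and Igtp went the other way, with ratios of 0.40 and 0.59, and Gbp2 (1418240_at) and Irgm2 had ratios of 1.04 and 1.05.

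Other values that moved with the FDC arrays were read from the same table. The ratio of labelling controls to hybridisation controls was 0.265 on FDC array 2 and 0.103 on FDC array 1, and likewise 0.406 on BMDC array 2 and 0.0924 on BMDC array 1, where the log2 differences of the 8 genes ran from -1.28 for Irgm1 to 2.05 for Gbp7. The ratio of 3′ to 5′ control signal was 0.875 and 0.904 for Gapdh, and 1.01 and 1.16 for Actb, on FDC arrays 2 and 1. T and NK cells are a usual source of interferon-gamma, and 12 of their markers had a summed signal of 4639 and 3546 on FDC arrays 1 and 2, against 2293 and 454 on the BMDC arrays. Of 11 of these markers tested, 3, Cd3d, Cd3g and Cd8b1, were called higher in FDC and 0 lower (by unadjusted p under 0.05, 7 and 0). The sum was lower on FDC array 2. Of 9 markers past the filter over all 6 arrays, 0 were at least 2-fold higher there and 3 at least 2-fold lower. The granule protease Gzmb, the brightest of the 12, had 1198 and 1709 and the pore-forming Prf1 100.7 and 112.5 on FDC arrays 1 and 2. All others of the 12 were lower on FDC array 2, among them Nkg7 at 54.2, against 321.4, and Gzma at 97.6, against 360.6. The NK cell receptor Ncr1 did not pass the filter on low signal. The 6 mast cell markers summed to 5222 and 6714 in FDC, against 3858 and 908 in BMDC, with 3 of 6 called higher, and the 5 B cell markers to 446 and 337, against 2622 and 614, with 0 of 5 called (1 lower by unadjusted p under 0.05). Among all probe sets tested between FDC and BMDC, 4.84% were called higher in FDC and 4.09% lower. The 8 fibroblast and stroma markers summed to 225451 and 137865 on FDC arrays 1 and 2. Of these 8, 5 were at least 2-fold lower on FDC array 2 and 0 higher. Of 11 FDC markers, 5 were that much lower and 0 higher. Over all probe sets 12.3% were that much lower and 11.6% higher. The part of these cell types and of the labelling in the result was not tested. In RNA from whole cultures, more cells with a transcript and more transcript per cell cannot be told apart.

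Between FDC and BMDC, 5 other IRG and GBP genes could be tested with limma. Of these, 1 was called higher and 0 lower (by unadjusted p under 0.05, 3 and 0). Their median log2 difference was 2.46. Over all probe sets 4.84% were called higher and 4.09% lower. Gm4951, also listed as Ifgga2, had signals of 2216 and 6122 in FDC, against 77.6 and 92.2 in BMDC, and rose by 5.23 ± 0.58 (SE, adjusted p = 0.00807). Ifi47, a further IRG gene, had 6306 and 15563 in FDC, against 2160 and 1246 in BMDC, a difference of 2.58 ± 0.59 (adjusted p = 0.0605). The Ifi47 difference was 3.23 without FDC array 1 and 1.93 without FDC array 2. Gbp2b had 3995 and 18486 in FDC, against 790.0 and 3360 in BMDC (2.39 ± 0.99, adjusted p = 0.232), and Gbp8 had 272.0 and 1511, against 102.6 and 108.8 (2.46 ± 0.82, adjusted p = 0.151). The Gbp8 difference was 3.67 without FDC array 1 and 1.26 without FDC array 2. Irgq, an IRG-like gene, had a difference of 0.74 ± 0.37 (adjusted p = 0.311), and Irgc1 did not pass the filter. Of the 5, 4 genes, all but Irgq, were at least 2-fold higher on FDC array 2 than on FDC array 1, where 11.6% of all probe sets were.

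Upstream of the GTPases, the interferon genes were dim. Ifng, the gene of interferon-gamma, had signals of 29.8 on the activated FL-Y array, 34.8 on the FL-Y array, 17.7 and 73.4 on FDC arrays 1 and 2 and 46.6 and 10.5 on the BMDC arrays, and neither it nor the 8 type I interferon genes read here passed the filter in FDC and BMDC. The highest type I signal was that of Ifnb1, at 115.2 on FDC array 1, against 24.2 on FDC array 2 and 44.6 and 10.3 on the BMDC arrays. Of the receptors, Ifngr1 had signals of 1992 and 1708 in FDC, against 3245 and 1692 in BMDC, and Ifnar2 had 11052 and 6908, against 4401 and 4059. With limma 0 of 6 receptor genes tested were called in either direction (also 0 by unadjusted p under 0.05), with log2 differences from -1.31 ± 0.85 for Ifnlr1 to 1.05 ± 0.42 for Ifnar2 (SE, adjusted p of 0.436 and 0.219).

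Of 21 JAK-STAT and IRF genes tested with limma, 0 were called higher and 3 lower in FDC (by unadjusted p under 0.05, 1 and 4). Over all probe sets 4.84% were called higher and 4.09% lower. The median difference of the 21 was 0.18. Among the 3 called lower, Irf8, a transcription factor of myeloid cells, fell by 3.02 ± 0.38 (SE, adjusted p = 0.0114). Ciita, the activator of MHC class II genes, fell by 2.86 ± 0.51 (adjusted p = 0.0314), and the kinase Tyk2 by 2.08 ± 0.40 (adjusted p = 0.0388). With the mean over its probe sets Tyk2 lost its call (-1.31, adjusted p = 0.113). With a floor in place of the offset Tyk2 (0.0658) and Ciita (0.0613) lost theirs, and likewise with no filter (0.0918 and 0.0705). Whichever of the 4 arrays was left out, Tyk2 lost its call (adjusted p of 0.0635 to 0.160). Ciita lost it without FDC array 1 (adjusted p = 0.0827), BMDC array 1 (0.0669) or BMDC array 2 (0.117), and Irf8 without BMDC array 1 (0.0552). Irf1, a transcription factor that binds ISRE sites, had 3918 and 9096 in FDC, against 1350 and 1343 in BMDC (2.14 ± 0.52, adjusted p = 0.0705). The Irf1 difference was 2.74 without FDC array 1 and 1.53 without FDC array 2. Between the FDC arrays, 6 of the 21 were at least 2-fold higher on array 2 and 2 at least 2-fold lower, with a median of 0.37. Over all probe sets 11.6% were that much higher and 12.3% lower. Batf2, an interferon-induced transcription factor, had 1620 on FDC array 2 and 128.2 on FDC array 1, and Nlrc5, the activator of MHC class I genes, had 1475 and 168.2.

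Other targets of interferon-gamma differed in both directions between the cell types. Of 31 tested with limma, 3 were called higher and 1 lower in FDC (by unadjusted p under 0.05, 8 and 4). Over all probe sets 4.84% were called higher and 4.09% lower. The median difference of the 31 was 0.57. Serping1, an inhibitor of complement, rose by 8.85 ± 1.11 (SE, adjusted p = 0.0114), the chemokine Cxcl9 by 8.40 ± 1.38 (adjusted p = 0.0242) and the inflammatory caspase Casp4 by 2.46 ± 0.37 (adjusted p = 0.0187). Cxcl9 was under the 20th percentile on both BMDC arrays and Serping1 on BMDC array 1, so their sizes depend on the offset, at 10.37 and 10.13 with a floor in its place and 6.84 and 7.75 with the larger offset. With the mean over its probe sets Cxcl9 lost its call (adjusted p = 0.0511). The lysosomal thiol reductase Ifi30 fell by 3.01 ± 0.56 (adjusted p = 0.0342). Casp4 lost its call without any 1 of the 4 arrays (adjusted p of 0.0531 to 0.0854) and with no filter (0.0517). Cxcl9 lost it without BMDC array 1 (0.0670) or 2 (0.0630), and Ifi30 without FDC array 1 (0.0770), BMDC array 1 (0.120) or BMDC array 2 (0.0774), and also with the floor (0.0645) and with no filter (0.0740). The chemokines Cxcl10 and Cxcl11 were not called with all 4 arrays (adjusted p of 0.121 and 0.322). The Cxcl10 difference was 6.93 without FDC array 1 and 2.49 without FDC array 2, and that of Cxcl11 was 8.33 and 0.80. Between the FDC arrays, 22 of the 31 were at least 2-fold higher on array 2 and 2 at least 2-fold lower, with a median of 1.52, beside 11.6% and 12.3% of all probe sets. Cxcl9 had 29344 on FDC array 2 and 1421 on FDC array 1, Cxcl11 had 9155 and 35.3, and the nitric oxide synthase Nos2 had 1635 and 5.7. Serping1 ran the other way, at 8040 on FDC array 2 and 40582 on FDC array 1. The Nos2 signal on FDC array 1 was under the 20th percentile of that array (14.7). The Cxcl11 values are those of the brighter of its 2 probe sets. With the mean over both, the FDC minus BMDC difference of Cxcl11 was 2.47, against 4.56. The contrast between cell types and the contrast between the FDC arrays share the FDC arrays, so they are given side by side only.

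**Figure D3:**
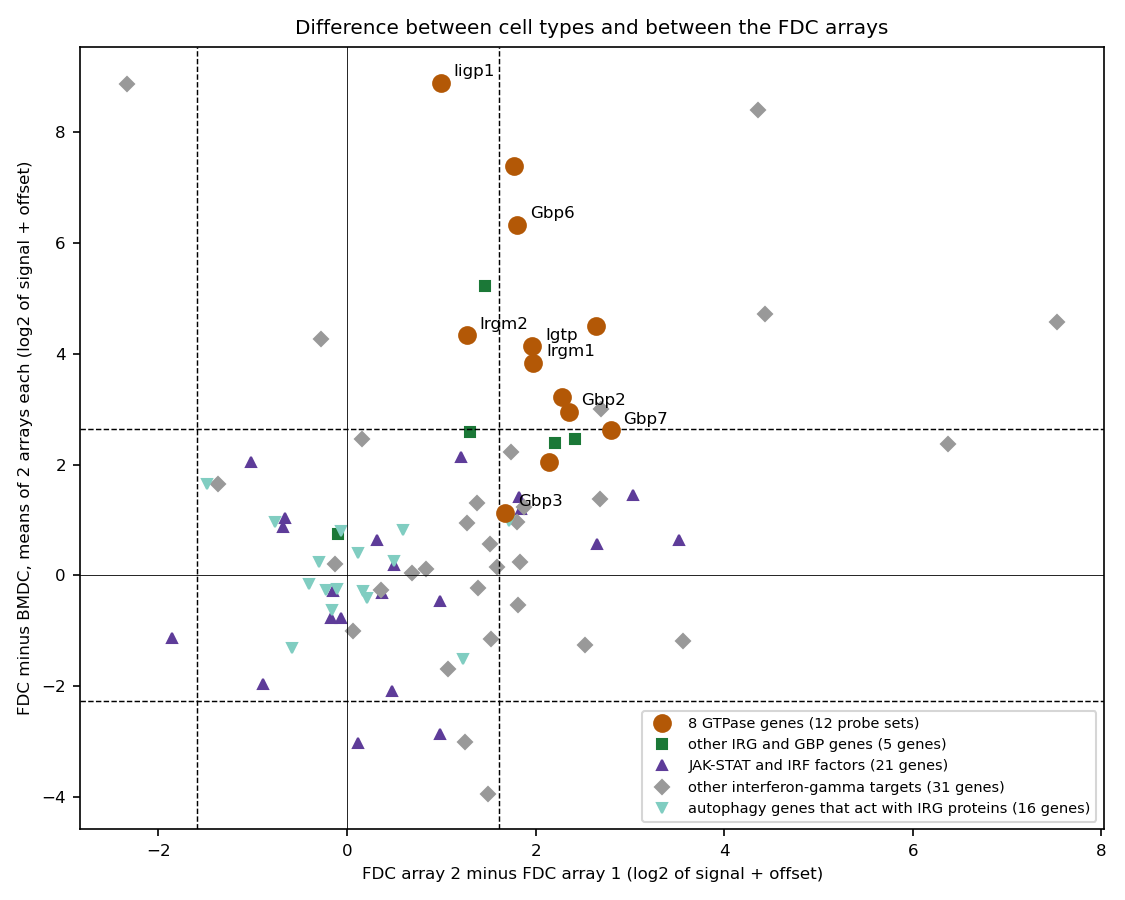
Log2 difference FDC minus BMDC (vertical) against FDC array 2 minus FDC array 1 (horizontal) for the 12 GTPase probe sets (circles, the brightest probe set of each gene named) and for the tested genes of 4 other lists; dashed lines mark the 5th and 95th percentiles of all probe sets. All GTPase probe sets lie above 0 on both axes, and many of the 31 other interferon-gamma targets lie to the right at differences near 0 between the cell types.

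IRG proteins are steered to their targets by the conjugation machinery of autophagy. The 16 genes read here hold parts of this machinery and others around it, such as Becn1, Ulk1, Sqstm1, Tax1bp1, Traf6 and Trim21. Of the 16, 0 were called in either direction with limma (by unadjusted p under 0.05, 1 higher and 2 lower), and the median was 0.05. The largest differences were those of Map1lc3a, a gene of the LC3 group, at 1.66 ± 0.61 (SE, adjusted p = 0.181), and of the ubiquitin ligase Traf6, at -1.50 ± 0.52 (adjusted p = 0.165). With the mean over all probe sets of a gene they were 1.83 and -0.63 (adjusted p of 0.152 and 0.407). Between the FDC arrays 2 of the 16, Traf6 and Trim21, were at least 2-fold higher on array 2 and 1, Map1lc3a, at least 2-fold lower. These counts are near the shares over all probe sets, 11.6% and 12.3%.

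The FL-Y signal of the GTPase genes lay below that of cultured FDC. The genes were known to be high in FDC when chosen, so counts and medians against FDC are a description from which nothing is read. With 1 array of the line, its differences have no replicate check. The FL-Y array lay at least 2-fold below FDC array 1, the lower FDC array for every member, with 12 of 12 probe sets, where 21.7% of all probe sets did. The median log2 difference of the 8 genes, FL-Y minus the mean of FDC, was -6.16, beside -0.09 over all probe sets, and it was -6.97 against FDC array 2 and -5.08 against FDC array 1. Against the mean of BMDC the median was -1.86, beside -0.05 over all, and 10 of 12 probe sets were at least 2-fold lower and 0 higher, where 21.4% of all were lower and 18% higher. FL-Y lay below all 4 FDC and BMDC arrays with 11 of 12 probe sets, as did 27% of all probe sets.

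Irgm1 was the exception in FL-Y. It had a signal of 731.3 on the FL-Y array, against 3367 and 13292 on the FDC arrays, and this stood above the 717.1 and 286.6 of the BMDC arrays. The other regulatory genes were lower, Igtp at 157.7 and Irgm2 at 62.1 on the FL-Y array. Iigp1 was at 30.4 and 1.8 with its probe sets, the second under the 20th percentile of the array. Gbp2 was at 176.9 and 109.8, Gbp3 at 62.0, Gbp6 at 14.5 and 27.3 and Gbp7 at 31.7 and 27.6. Irgm1 and Gbp3 differed least from FDC, by log2 values of -3.17 and -3.12, and Iigp1 differed most, at -9.59 (1419043_a_at), a size that depends on the offset since FL-Y was near background.

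Among genes past the filter, most of each of 4 interferon lists were lower in FL-Y than in FDC, and fewer of the autophagy list. Of 5 other IRG and GBP genes, 5 were at least 2-fold lower than the mean of FDC, as were 25 of 31 other interferon-gamma targets and 12 of 21 JAK-STAT and IRF genes, where 18.8% of all probe sets were that much lower and 12.9% higher. The medians were -5.29, -3.43 and -1.36. Of 15 interferon and receptor genes measured, 7 passed the filter, with a median of -1.14. Of the 7, 5 were that much lower, all of them receptor genes. Among 16 autophagy genes 4 were that much lower, with a median of -0.70. Ifi47 had a signal of 1838 in FL-Y, between those of the BMDC arrays.

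Activation of FL-Y through the lymphotoxin beta receptor was followed by GTPase signals near those without it. At least 2-fold on the log2 scale, 0 of 12 probe sets were higher on the activated array and 1 was lower, where 3.14% of all probe sets were higher and 5.72% lower. The median over the 8 genes was -0.15, beside -0.03 over all probe sets. Irgm1 had 544.4 on the activated array, against 731.3 on the FL-Y array, and Igtp had 134.2, against 157.7. Irgm2 had 73.0, against 62.1, and Iigp1 had 37.9, against 30.4 (1419043_a_at), and 3.4, against 1.8 (1419042_at), both under the 20th percentile. Gbp2 had 117.7, against 176.9, and 79.2, against 109.8, Gbp3 had 57.3, against 62.0, and Gbp6 had 24.3, against 14.5, and 36.9, against 27.3. The lower one was Gbp7 with 1425156_at, at 6.3, against 31.7, a log2 difference of -1.16, while its other probe set had 28.9, against 27.6. The Gbp7 probe sets thus disagreed, and the first was under the 20th percentile of the activated array.

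Among the other lists, 3 of 31 interferon-gamma targets were at least 2-fold higher on the activated array and 1 was lower. The shares over all probe sets were 3.14% higher and 5.72% lower. The chemokine Cxcl10 had 1232, against 106.2 without activation, and the adhesion molecule Icam1 had 789.0, against 115.1. Cxcl11 had 59.1, against 19.9. The costimulatory receptor Cd40 was the lower one, at 2.4, against 27.1. Of the 21 JAK-STAT and IRF genes 1 was higher, Socs1, an inhibitor of JAK kinases, at 86.6, against 3.5, and Irf7 and Irf8 were lower. Socs1 was under the 20th percentile of the FL-Y array (12.1). Cd40 and Irf7 were under that of the activated array (8.7), so the sizes of these differences depend on the offset. These changes rest on 1 array each, and the activated array had a lower median signal, 47.9, against 61.1.

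**Figure D4:**
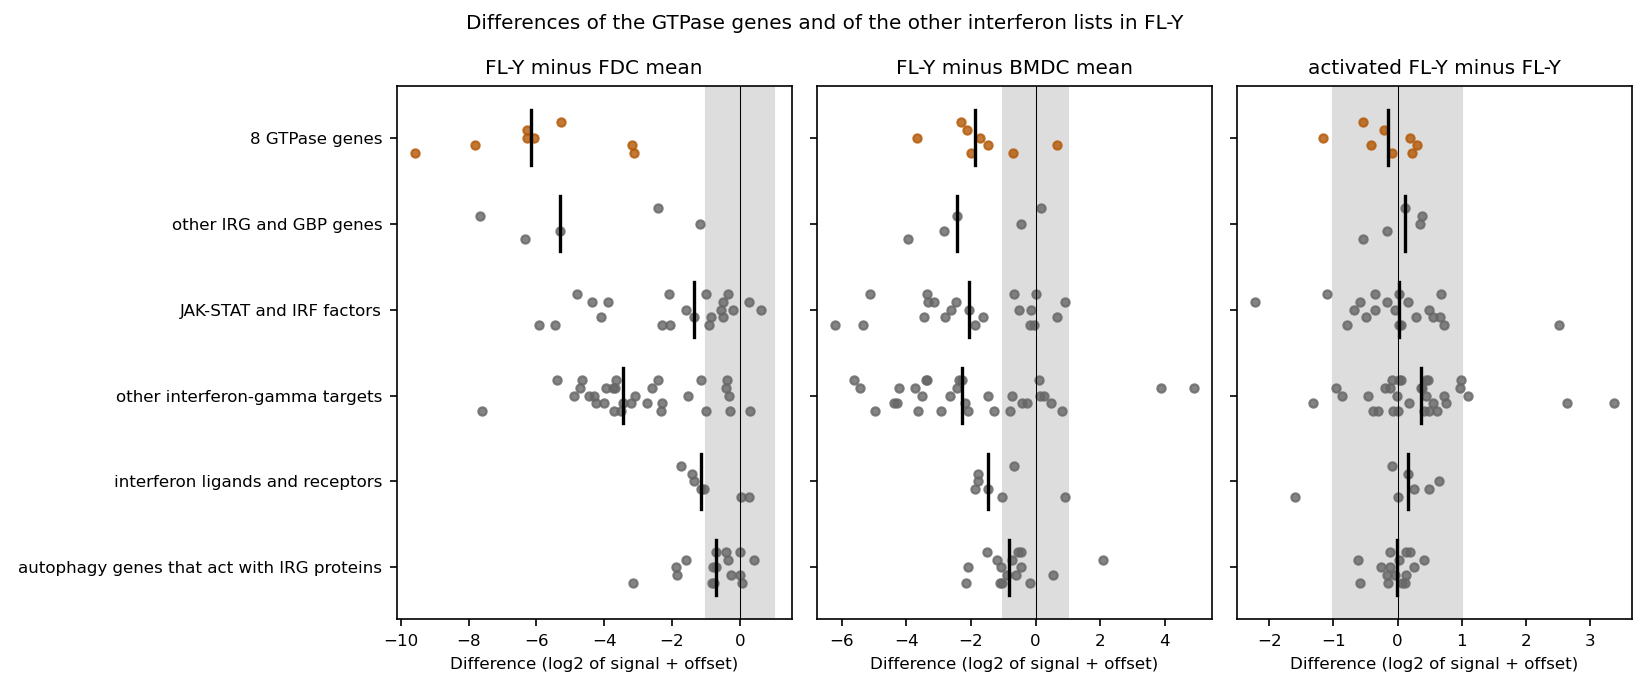
Log2 differences of the 8 GTPase genes (orange) and of the genes of 5 other lists (grey) for FL-Y against the mean of FDC, FL-Y against the mean of BMDC and activated FL-Y against FL-Y; black bars are medians and the shaded band covers changes under 2-fold. The GTPase genes lie far to the left of 0 in the first panel, with a median of -6.16, and around 0 in the third, with a median of -0.15.

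The members' likeness over the arrays is partly fixed by their choice for high signal in FDC. Each gene's log2 values correlated with the mean of the other 7 over the 6 arrays at r of 0.88 to 0.996, lowest for Irgm1 (0.88) and Gbp7 (0.88) and highest for Irgm2. Among 12633 other named genes, the 8 with the most similar pattern to the mean of the members, by Pearson's r over the 6 arrays, were Gm4951, Kat8, Arnt, Stox2, Ifit1, Serpini1, Shfl and Urgcp, with r between 0.986 and 0.995. Gm4951 spanned 8.40 on the log2 scale over the arrays and Ifit1, an antiviral protein induced by interferon, 5.17. Kat8, a histone acetyltransferase, spanned only 0.87, with signals of 423.6 on the activated FL-Y array and 428 on the FL-Y array, 710 and 788.2 in FDC and 511.2 and 521 in BMDC. The points are 6 arrays of 4 kinds of cell that all genes share, so r describes these arrays only.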

How the data were processed

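Per the labels, total RNA of 6 mouse samples was labelled with biotin (One-Cycle Target Labeling Kit). The deposited values are 1 linear intensity per probe set and array for 45101 probe sets, 64 of them controls. The mean after trimming 2% at each end was 500.003 to 500.004 on the arrays, so the authors had scaled them to a common target; the program used is not given in the sources used here. The platform annotation gave 34945 probe sets 1 gene and 932 several, and none was named from the latter. Gene names used a GRCm38.p6 table, and 0 symbols needed an update.

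Values were analysed as log2(signal + 14.2). Where a gene had several probe sets, the one of highest mean log2 signal stood for it. The test of FDC against BMDC was limma's moderated one (version 3.58.1, R 4.3.3, lmFit with eBayes, two-sided, residual df 2, prior df 3.35). Adjustment by Benjamini-Hochberg ran over 27022 probe sets, those with a mean over the 4 arrays above the 40th percentile, a signal of 46.4. Descriptions of other contrasts used the probe sets above the 40th percentile over all 6 arrays. The fit was also run on simulated data with independent noise and large planted changes, which checks the procedure and gives no support to the calls here. The members and lists were chosen with earlier results of these data known. Named genes were the members, all measurable IRG and GBP genes, interferon and receptor genes and JAK-STAT or IRF genes where they bore on the result, up to 4 called genes of each other list, and the 8 genes of most similar pattern; genes named for their difference between the FDC arrays or upon activation were chosen after their values were seen. The alternatives were a floor in place of the offset, a larger offset, quantile normalization, no filter, all probe sets of a gene, the array number as a block and leaving out each array. The number of arrays limits the precision.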

Additional observations from a re-analysis of the deposited data

How the results depend on the processing

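The median differences of the 8 genes kept their sign under every alternative run: 3.89 to 4.04 for FDC minus BMDC (2.999 to 4.896 with 1 array left out), -6.37 to -5.46 for FL-Y minus FDC (-6.97 to -5.08 with an FDC array left out), -2.08 to -1.47 for FL-Y minus BMDC, 1.88 to 1.97 between the FDC arrays and -0.17 to -0.02 upon activation. By gene, 31 of 32 values upon activation kept their sign, and all did in the other contrasts.

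Over all probe sets, 1307 were called higher and 1106 lower in FDC, against 793 and 661 with a floor in place of the offset, 795 and 638 with no filter, and 776 to 1042 and 536 to 1048 with 1 array left out. Of the 5 other IRG and GBP genes, 2 were called higher with the larger offset and 1 to 3 with 1 array left out. Of the JAK-STAT and IRF genes, 1 was called higher with the larger offset and 0 to 1 with 1 array left out. Of these, 1 was called lower with the floor, 1 with no filter, and 0 to 2 with 1 array left out. Of the interferon-gamma targets, 1 to 6 were called higher with 1 array left out, while 0 were called lower with the floor, 0 with no filter and 0 to 1 with 1 array left out. Where a left-out array leaves a group with 1 array, that array is assumed to vary like the others. The cause of these changes was not tested.

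The array numbers are not stated to pair the samples, and with 2 pairs (r = 0.2001 across probe sets between the differences of array 2 from array 1) they were not taken to do so. With the replicate block, 1326 probe sets were called higher and 1066 lower, 2 of the other IRG and GBP genes higher, and 4 of the interferon-gamma targets higher and 1 lower. Gbp2b (adjusted p = 0.0353), Ido1 (0.0295) and Fcgr1 (0.0377, lower) gained a call under the block, and Ifi30 lost its own (0.0607). Signals near background limit the differences of Iigp1 and Gbp6 that involve FL-Y or BMDC and those of Gbp7 that involve FL-Y.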
